A study of Arabidopsis thaliana with 6 samples.

Results

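The 9 Arabidopsis genes LHCB1.1 to LHCB1.5, LHCB2.1 to LHCB2.3 and LHCB3 code for the proteins of LHCII, the major light-harvesting antenna of photosystem II. They were picked out by locus identifier, a rule that uses no measured value although the family was taken up with earlier results of these data known, and all 9 were present with reads among the 34262 genes listed, of which 23542 had reads. The transcriptome was measured by RNA-seq in 3 genotypes of the Col-0 ecotype with 2 libraries each: the mutant jmj28, the overexpression line JMJ28np5-OE, and the wild type, WT. Whole seedlings of all 3 were grown in long days at 22 °C and sampled at 14 days. JMJ28 codes for a jumonji-type histone demethylase. The allele of jmj28, the promoter of the overexpression line, the meaning of np5 and the number of plants in a library were not given in the sources used here. Nothing says that the 2 libraries of a genotype came from separate growths. The spread between libraries may therefore be technical, and a p-value cannot be read as measuring the spread between growths.

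LHCII is built from trimers of LHCB1, LHCB2 and LHCB3 proteins, which bind chlorophyll a, chlorophyll b and carotenoids in the thylakoid membrane. The proteins are made in the cytosol from nuclear genes, carried through the chloroplast envelope and stroma, and inserted into the thylakoid. LHCB1 makes up the bulk of the trimers, LHCB2 is known for its fast phosphorylation during state transitions, and LHCB3 lacks the phosphorylated threonine. Transcription of these genes is raised by light and by the GLK factors and follows the circadian clock.

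The LHCB1 genes are a set of close copies, which bears on how far each one can be measured by itself. On chromosome 1 of TAIR10, LHCB1.2 (AT1G29910) lies at 10472280 to 10473502 on the minus strand, LHCB1.1 (AT1G29920) at 10474656 to 10475969 on the minus strand, and LHCB1.3 (AT1G29930) at 10477885 to 10479114 on the plus strand. LHCB1.1 and LHCB1.3 thus start away from each other, with 1915 bases between them. On chromosome 2, LHCB1.5 (AT2G34420) lies at 14522524 to 14523568 on the minus strand and LHCB1.4 (AT2G34430) at 14524607 to 14525918 on the plus strand, also back to back, with 1038 bases between them. Each of these 5 genes has 1 exon. The deposited tables name LHCB1.1 LHCB1.1_2, LHCB1.2 LHCB1.1_1, LHCB1.4 LHB1B1 and LHCB1.5 LHB1B2. The same 60 coding bases of each copy, bases 199 to 258 of the LHCB1.3 coding sequence read from the RefSeq genome (TAIR10.1), are shown to let the copies be compared, with capitals marking the bases that differ from LHCB1.3.
LHCB1.3: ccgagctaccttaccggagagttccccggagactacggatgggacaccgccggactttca
LHCB1.1: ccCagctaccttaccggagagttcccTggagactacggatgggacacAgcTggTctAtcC
LHCB1.2: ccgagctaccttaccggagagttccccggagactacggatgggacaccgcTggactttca
LHCB1.5: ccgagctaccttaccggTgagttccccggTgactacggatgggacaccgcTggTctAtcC
LHCB1.4: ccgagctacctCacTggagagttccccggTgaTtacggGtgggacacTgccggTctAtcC
LHCB1.2 had 1 difference from LHCB1.3 over this stretch, LHCB1.5 had 6, LHCB1.1 had 7 and LHCB1.4 had 9. The stretch was picked as the one where the chromosome 1 copies differ most. Across the full coding sequence LHCB1.1 had 31 mismatches to LHCB1.3, and LHCB1.5 had 80. Over the whole coding sequence the chromosome 1 copies were 95.6% to 96.4% identical to each other, with 29 to 35 mismatches, and the chromosome 2 copies were 91.4% identical, with 60 mismatches. Identity between a chromosome 1 and a chromosome 2 copy was 86.8% to 90.4%.

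The other LHCB genes stand farther apart. LHCB2.1 (AT2G05100, chromosome 2, 1822990 to 1824480, minus strand, 4 exons) and LHCB2.2 (AT2G05070, chromosome 2, 1799234 to 1800472, minus strand, 2 exons) were 96.6% identical in coding sequence and lie 22517 bases apart. LHCB2.3 (AT3G27690, chromosome 3, 10255906 to 10257489, plus strand, 4 exons; LHCB2.4 in the tables) was 84.4% and 85.5% identical to them. LHCB3 (AT5G54270, chromosome 5, 22038165 to 22039568, plus strand, 3 exons) shared 64.5% to 68.0% of its coding sequence with the LHCB1 genes. No stretch of 150 bases, the read length, in the transcript of any LHCB1 gene, LHCB2.3 or LHCB3 occurred elsewhere in the genome, whereas 3 of 1257 such stretches of LHCB2.1 and 3 of 994 of LHCB2.2 did. An error-free read can therefore be told apart for nearly all positions. How the authors' counting treated reads with mismatches is not given, so the split of reads among the chromosome 1 copies, and between LHCB2.1 and LHCB2.2, is uncertain. Several LHCB genes also overlap a gene on the opposite strand by 99 to 1045 bases, and the library kit does not mark strand. The 4 protein-coding partners reached at most 16.6 RPKM. For LHCB2.3 the overlap is 595 bases, and its partner AT3G27700 reached 9.3 RPKM where LHCB2.3 reached 31.5 RPKM. How far this partner adds to the LHCB2.3 values was not tested. The long non-coding partner of LHCB1.5, AT2G08665, covers all 1045 bases of that gene and was listed without reads. Without strand, this cannot show that RNA from the opposite strand is absent.

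The promoters of LHCB3, LHCB1.4 and LHCB1.5 are shown because these genes were lower together in jmj28 than in JMJ28np5-OE, and those of LHCB1.3 and LHCB1.1 because they were not called. They were read 5′ to 3′ on the gene's strand from the RefSeq genome (TAIR10.1) and end at the base before the annotated start, that of LHCB3 being cut where a neighbouring gene model ends. Capitals mark matches, on either strand, to the CCAAT box (CCAAT), the GLK-type motifs (CCAATC and GATTCT) and the CCA1-binding site (AANAATCT), all named from earlier work on light-regulated genes.
LHCB3, chr5:22038053-22038164, plus strand: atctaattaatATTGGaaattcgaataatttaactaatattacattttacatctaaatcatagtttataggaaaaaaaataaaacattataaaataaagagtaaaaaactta
LHCB1.4, chr2:14524357-14524606, plus strand: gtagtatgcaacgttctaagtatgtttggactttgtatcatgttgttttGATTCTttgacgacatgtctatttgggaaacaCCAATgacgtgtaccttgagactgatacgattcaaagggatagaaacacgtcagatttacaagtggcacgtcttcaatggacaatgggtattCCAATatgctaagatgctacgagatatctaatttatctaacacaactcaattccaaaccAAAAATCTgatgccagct
LHCB1.5, chr2:14523569-14523818, minus strand: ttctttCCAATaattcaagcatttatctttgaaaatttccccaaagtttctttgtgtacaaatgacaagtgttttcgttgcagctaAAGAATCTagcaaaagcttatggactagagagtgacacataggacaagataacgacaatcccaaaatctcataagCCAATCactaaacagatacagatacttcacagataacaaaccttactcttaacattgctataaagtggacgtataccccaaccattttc
LHCB1.3, chr1:10477635-10477884, plus strand: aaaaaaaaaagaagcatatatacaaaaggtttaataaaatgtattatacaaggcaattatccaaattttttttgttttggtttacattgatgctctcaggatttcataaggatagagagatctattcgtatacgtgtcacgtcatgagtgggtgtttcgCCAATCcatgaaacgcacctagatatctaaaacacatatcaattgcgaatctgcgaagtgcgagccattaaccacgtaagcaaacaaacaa
LHCB1.1, chr1:10475970-10476219, minus strand: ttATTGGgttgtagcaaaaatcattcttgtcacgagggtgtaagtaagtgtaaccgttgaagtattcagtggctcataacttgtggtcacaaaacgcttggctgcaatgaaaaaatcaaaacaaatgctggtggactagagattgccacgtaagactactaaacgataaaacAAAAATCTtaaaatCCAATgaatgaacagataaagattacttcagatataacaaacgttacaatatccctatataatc
In windows from 250 bases before to 50 bases after the annotated start, CCAAT was present in 9 of 9 LHCB genes, against 51.6% of 27443 promoters of protein-coding genes. CCAATC, which contains CCAAT, was found in 5 of 9 LHCB genes and 12.3% of promoters, and AANAATCT in 4 of 9 and 15.9%. GATTCT was in 3 of 9 LHCB genes and 19.3% of promoters, and in LHCB1.5 it overlaps AANAATCT on the other strand. TATATA, the core of the TATA box, was in 4 of 9 and 34.7%. The G-box CACGTG was found in LHCB2.3 alone (7.68% of promoters), GATAAG, the core of the I-box, in LHCB2.1 alone (14.6%), and the evening element AAAATATCT in none of the 9 (2.82%). LHCB3, LHCB1.4 and LHCB1.5 had no motif of those searched in common besides CCAAT, which all 9 share. Matches that run past the start, or lie beyond the bases shown, are counted but not shown. A match is a run of letters and not a measured binding site.

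The levels are given in RPKM, reads scaled by exon length and by the total of the library, which allows genes of different length to be compared. The deposited tables give the higher of 2 genotype means for each gene, and since each mean is made from whole reads, the value of each library could be solved for from the mean. The libraries are called deeper and shallower by their total. Totals were 13549528 and 11791666 reads in jmj28, 12380403 and 10632893 reads in JMJ28np5-OE, and 19693228 and 14309520 reads in WT. Of the 3 genotype means of a gene, the tables hold no value for the lowest. That mean was set from the deposited fold change, with no value per library, and the same step on genes with known means was off by -0.52% to 0.45% (5th to 95th percentile).

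LHCB1.3 was the LHCB transcript with the highest level, and the second highest of all 23542 genes with reads by its highest genotype mean. It averaged 7692 RPKM in jmj28 (from the fold change), 8222 and 8881 RPKM in the JMJ28np5-OE libraries, and 8133 and 7667 RPKM in the WT libraries. LHCB1.5 ranked 5 of all genes, LHCB1.2 ranked 29, LHCB3 ranked 40 and LHCB1.4 ranked 62. The LHCB2 genes were far lower, LHCB2.2 ranking 420, LHCB2.1 ranking 435 and LHCB2.3 ranking 3735, and LHCB1.1 ranked 352. Taking the 5 values of each gene over all genotypes (4 libraries and 1 mean), the lowest of LHCB1.3 was 1.45 times the highest of LHCB1.5, and LHCB1.5, LHCB1.2 and LHCB3 followed without overlap. Pooled over genotypes, the values of LHCB3 and LHCB1.4 overlapped, as did those of LHCB1.1, LHCB2.2 and LHCB2.1. Within each genotype, however, the mean of LHCB3 was above that of LHCB1.4. The mean of LHCB1.1 was likewise above those of LHCB2.1 and LHCB2.2, which changed places in JMJ28np5-OE. LHCB2.3 lay below all others, with the lowest value of LHCB2.1 at 4.66 times the highest of LHCB2.3.

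**Figure D1:**
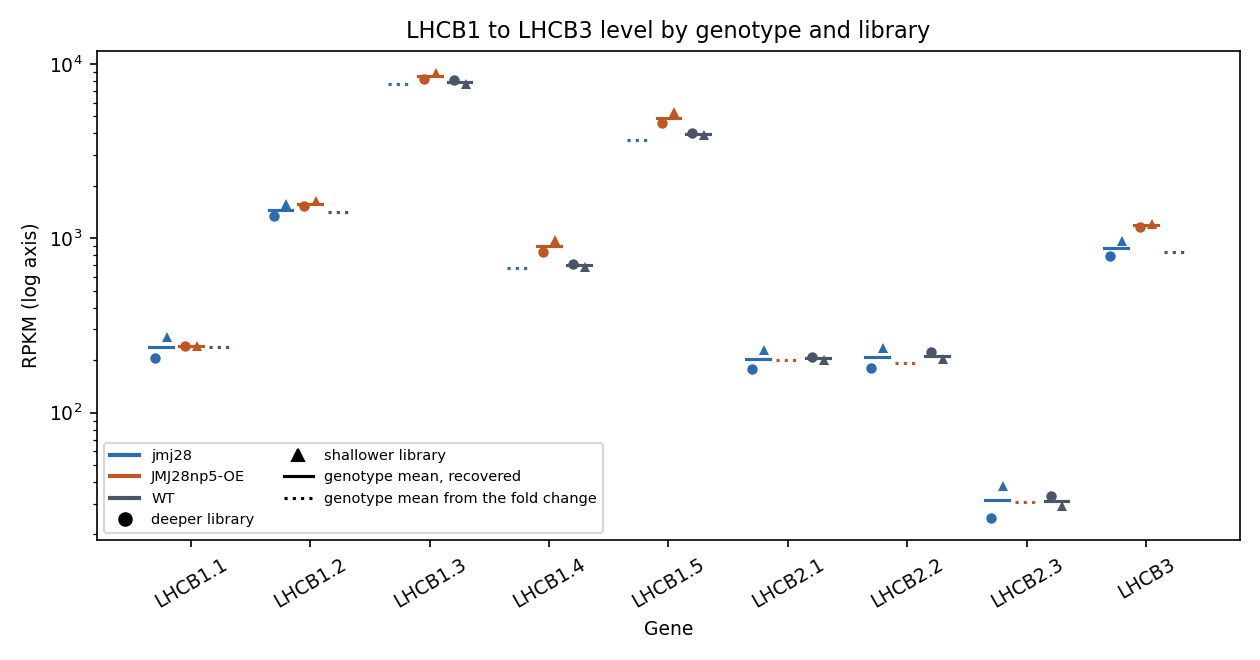
Level of each LHCB gene in RPKM (log axis) in jmj28, JMJ28np5-OE and WT, with circles for the deeper and triangles for the shallower library and lines for the genotype mean, dotted where it was set from the fold change. LHCB1.3 sits at 7667 to 8881 RPKM and LHCB2.3 at 24.9 to 38.1 RPKM, and the LHCB1 genes and LHCB3 have their highest mean in JMJ28np5-OE, where LHCB2 does not.

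LHCB1 made up most of the summed level in each genotype. The 9 genes summed to 15073.5 RPKM in jmj28, 17824.8 RPKM in JMJ28np5-OE and 15504.7 RPKM in WT. LHCB1 made up 91.3% of this sum in jmj28, 91.0% in JMJ28np5-OE and 91.7% in WT. LHCB2 made up 2.94% in jmj28, 2.38% in JMJ28np5-OE and 2.89% in WT, and LHCB3 made up 5.82% in jmj28, 6.66% in JMJ28np5-OE and 5.38% in WT. Within LHCB1, the chromosome 2 copies held 28.9% of the sum in jmj28, 32.8% in JMJ28np5-OE and 30.2% in WT, while the chromosome 1 copies held 62.3% in jmj28, 58.2% in JMJ28np5-OE and 61.6% in WT. These shares were not tested, since at least 1 mean of each sum has no value per library.

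In jmj28 against WT, no LHCB gene was called in either direction at an FDR, the p-value adjusted over all genes by the authors, under 0.05. Over all genes tested, 1.3% were called, 0.208% higher and 1.1% lower, and of the 977 genes with at least 100 RPKM, as 8 of the 9 LHCB genes have, 2.76% were called. The authors' deposited table gave log2 fold changes of -0.14 for LHCB1.5, -0.09 for LHCB1.4, -0.07 for LHCB1.3, -0.03 for LHCB1.1, 0.02 for LHCB1.2 and 0.04 for LHCB3, each with an FDR of 1. The 3 LHCB2 genes were at -0.06 to -0.02. All 9 had an unadjusted p above 0.05, and 7 of 9 were below 0. That count depends on the scale. Over 2860 genes of at least 20 RPKM, the deposited value differed from the log2 ratio of RPKM means by a median of -0.034. As RPKM means, LHCB1.1 (238.6 in jmj28, 237.2 in WT set from the fold change) and LHCB2.3 (31.49 and 31.17) were slightly higher in jmj28. If the deposited p-values come from a normal deviate, the standard error was 0.12 for 8 genes and 0.16 for LHCB2.3. The 95% intervals together then spanned -0.38 to 0.29. This error did not follow a gene's own libraries. For LHCB1.1 it was 0.12 both here and in JMJ28np5-OE against WT. Yet the log2 ratio of its shallower over its deeper library was 0.395 in jmj28 and 0.002 in JMJ28np5-OE. A call in this comparison would have needed a log2 change of about 0.43 for those 8 genes and 0.56 for LHCB2.3, so smaller differences were not detectable here.

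The LHCB2 genes had their libraries solved in both genotypes. LHCB2.1 had 177.4 and 228.8 RPKM in jmj28 libraries, against 208.1 and 201.4 RPKM in WT libraries. LHCB2.2 had 181.1 and 235.3 RPKM in jmj28, against 221.5 and 201.9 RPKM in WT. LHCB2.3 had 24.9 and 38.1 RPKM in jmj28 (494 and 658 reads), against 33.1 and 29.2 RPKM in WT (955 and 613 reads). In each of the 3, the jmj28 libraries lay on either side of both WT libraries. Of the 10631 genes with these 4 libraries solved, 34.2% had both jmj28 libraries above both WT libraries and 6.54% had both below. These are the genes with their lowest mean in JMJ28np5-OE, a set picked by the values themselves, so the shares describe that set and not all genes. The median log2 fold change of the 9 genes was -0.05, against -0.004 over all genes and -0.03 over those with at least 100 RPKM. Without the deeper jmj28 library, with only 6 of the 9 genes recomputed, it became 0.13.

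In JMJ28np5-OE against WT, LHCB3 and LHCB1.4 rose and no LHCB gene fell, so 2 of 9 were called higher; over all genes 2.87% were called higher, 0.684% lower and 3.55% in either direction. Of the 1002 genes with at least 100 RPKM, 6.09% were called higher and 7.98% in either direction. LHCB3 had 1160 and 1214 RPKM in JMJ28np5-OE libraries, against a mean of 833.6 RPKM in WT set from the fold change. Both JMJ28np5-OE libraries were above the WT mean. By the authors' deposited table LHCB3 had a log2 fold change of 0.53 (1.45-fold, FDR 0.00136, implied standard error 0.12). LHCB1.4 had 835.9 and 980.6 RPKM in JMJ28np5-OE libraries, against 716.7 and 682.9 RPKM in WT libraries. Its groups did not overlap, and the authors' deposited table gave a log2 fold change of 0.40 (1.32-fold) with an FDR of 0.0459, close to the threshold. A call in this comparison needed a log2 change of about 0.40. Without the shallower JMJ28np5-OE library LHCB1.4 was at 0.28, and without the deeper one at 0.51.

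The other LHCB1 copies did not pass. LHCB1.5, the neighbour of LHCB1.4, had 4580 and 5287 RPKM in JMJ28np5-OE libraries, against 4031 and 3927 RPKM in WT libraries. The groups did not overlap, but the log2 fold change of 0.34 had an FDR of 0.152 per the authors' deposited table (unadjusted p = 0.00607). LHCB1.3 also had both JMJ28np5-OE libraries above both WT libraries, with a log2 fold change of 0.14 and an FDR of 1 per the authors' deposited table. Of the 7520 genes with these 4 libraries solved, which are those with their lowest mean in jmj28 and so picked by the values themselves, 29.7% had both JMJ28np5-OE libraries above both WT libraries. By the authors' deposited table LHCB1.2 was at 0.19 (FDR 0.769) and LHCB1.1 at 0.05 (FDR 1). The LHCB2 genes were at -0.11 for LHCB2.2 and -0.01 for LHCB2.1 and LHCB2.3, each with an FDR of 1 per the authors' deposited table. The median over the 9 genes was 0.14, against 0.002 over all genes and -0.02 over those with at least 100 RPKM.

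In jmj28 against JMJ28np5-OE, LHCB3, LHCB1.4 and LHCB1.5 fell and no LHCB gene rose. Thus 3 of 9 were called lower, where 7.29% of all genes were, with 4.12% called higher and 11.4% in either direction. Of the 1024 genes with at least 100 RPKM, 18.0% were called lower and 27.1% in either direction. LHCB3 had 793.1 and 960.1 RPKM in jmj28 libraries, against 1160 and 1214 RPKM in JMJ28np5-OE libraries. Both jmj28 libraries were below both JMJ28np5-OE libraries, as they were for 17.3% of the 6166 genes with these 4 libraries solved, those with their lowest mean in WT. The authors' deposited table gave LHCB3 a log2 fold change of -0.50 with an FDR of 0.0017. LHCB1.4 had a mean of 674.0 RPKM in jmj28, set from the fold change, against 835.9 and 980.6 RPKM in JMJ28np5-OE libraries, with a log2 fold change of -0.49 and an FDR of 0.00204 per the authors' deposited table. LHCB1.5 had a mean of 3687 RPKM in jmj28, against 4580 and 5287 RPKM in JMJ28np5-OE libraries, with a log2 fold change of -0.48 and an FDR of 0.0026 per the authors' deposited table. For these 2 genes the jmj28 mean was below both JMJ28np5-OE libraries, and the jmj28 libraries themselves could not be solved.

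LHCB1.2 and LHCB1.1 overlapped between these genotypes. LHCB1.2 had 1345 and 1579 RPKM in jmj28 libraries, against 1528 and 1631 RPKM in JMJ28np5-OE libraries, and a log2 fold change of -0.17 (FDR 0.623) per the authors' deposited table. LHCB1.1 had 206.1 and 271.1 RPKM in jmj28 libraries, against 241.5 and 241.9 RPKM in JMJ28np5-OE libraries, and a log2 fold change of -0.08 (FDR 1) per the authors' deposited table. LHCB1.3 was at -0.21 (FDR 0.414), and the LHCB2 genes were between -0.04 and 0.05 (FDR 1 each) per the authors' deposited table. The median of the 9 was -0.17, against -0.02 over all genes and -0.03 over those with at least 100 RPKM. The 3 comparisons share their libraries, so their values for a gene are not independent. Whether LHCB3 and the chromosome 2 copies differed from the other LHCB genes in their response was not tested.

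**Figure D2:**
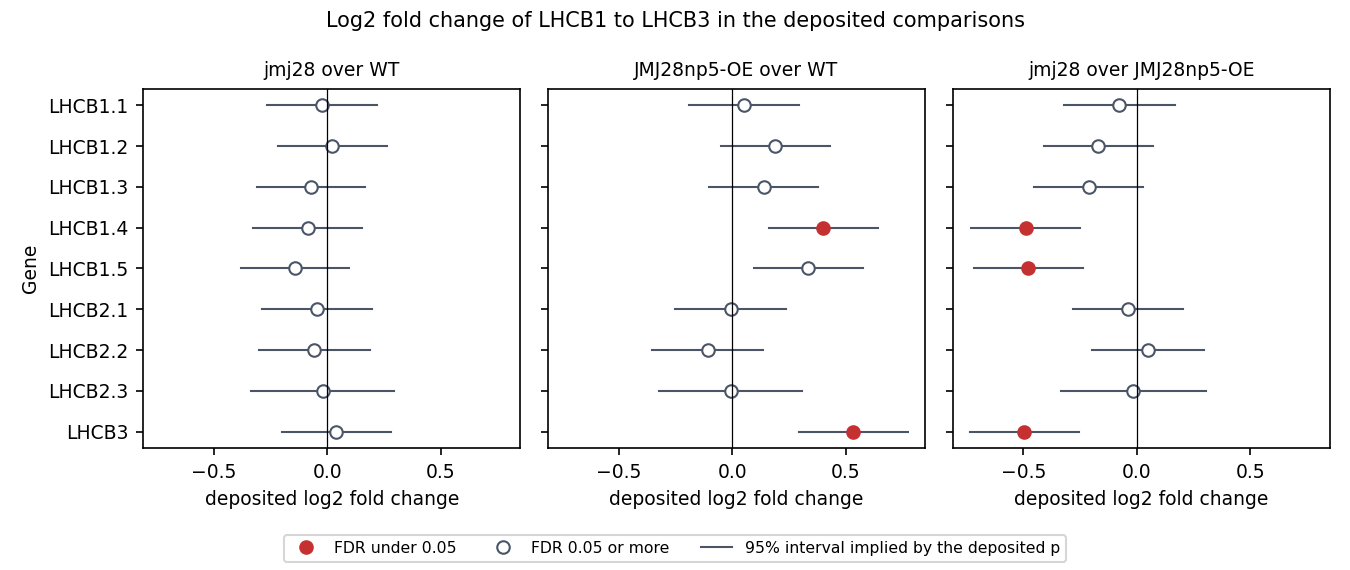
Deposited log2 fold change of each LHCB gene in the 3 comparisons, with the 95% interval implied by the deposited p-value and filled points at an FDR under 0.05. LHCB1.4 and LHCB3 are filled above 0 in JMJ28np5-OE over WT, LHCB1.4, LHCB1.5 and LHCB3 are filled below 0 in jmj28 over JMJ28np5-OE, and no gene is filled in jmj28 over WT.

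The chromosome 2 copies kept their proportion to each other in the genotype means. LHCB1.4 stood at 0.183 of LHCB1.5 in jmj28, 0.184 in JMJ28np5-OE and 0.176 in WT. LHCB1.5 in turn stood at 0.479 of LHCB1.3 in jmj28, 0.577 in JMJ28np5-OE and 0.504 in WT. An even proportion was not particular to the chromosome 2 pair. LHCB1.2 stood at 0.19 of LHCB1.3 in jmj28, 0.185 in JMJ28np5-OE and 0.178 in WT. The jmj28 means of LHCB1.3, LHCB1.4 and LHCB1.5 and the WT mean of LHCB1.2 were set from the fold change. Summed, the chromosome 2 copies reached 4361 RPKM in jmj28, 5842 RPKM in JMJ28np5-OE and 4679 RPKM in WT, while the chromosome 1 copies reached 9393 RPKM in jmj28, 10373 RPKM in JMJ28np5-OE and 9545 RPKM in WT. The RPKM log2 ratio of JMJ28np5-OE to WT was 0.32 for the chromosome 2 copies and 0.12 for the chromosome 1 copies, and that of LHCB2 was -0.08.

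The libraries of jmj28 differed from each other in the 6 LHCB genes that could be solved there more than in most genes. All 6 were higher in its shallower library, by 1.17-fold for LHCB1.2, 1.21-fold for LHCB3, 1.29-fold for LHCB2.1, 1.3-fold for LHCB2.2, 1.32-fold for LHCB1.1 and 1.53-fold for LHCB2.3. Their median log2 ratio was 0.37, against -0.04 (SD 0.14) over 3859 genes of at least 20 RPKM, of which 36.3% were higher in the shallower library. Depending on the LHCB gene, 0.1% to 2.0% of those genes had a larger ratio. In JMJ28np5-OE the 6 solved LHCB genes had log2 ratios of 0.002 to 0.23, within 1 SD (0.23) of the median of all genes (0.06). In WT the 6 solved genes were all lower in the shallower library, with log2 ratios of -0.18 to -0.04 against a median of 0.02 (SD 0.14). The minor photosystem II antenna had no gene of at least 20 RPKM solved in jmj28, and of the 6 photosystem I antenna genes 1 was, at 0.13. The photosystem II and photosystem I subunits solved in jmj28 (5 genes) lay between -0.17 and 0.19. Of the 4 root markers of at least 20 RPKM solved in jmj28, 3 were higher in the shallower library, with a median log2 ratio of 0.26 and a range of -0.06 to 0.76.

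The jmj28 libraries touch the calls against JMJ28np5-OE. LHCB3 in jmj28 against JMJ28np5-OE had a log2 fold change of -0.36 without the deeper jmj28 library and -0.64 without the shallower one. For LHCB1.4 and LHCB1.5 these values cannot be had. Without the deeper JMJ28np5-OE library LHCB1.4 was at -0.60 and LHCB1.5 at -0.58, and without the shallower one both were at -0.37.

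**Figure D3:**
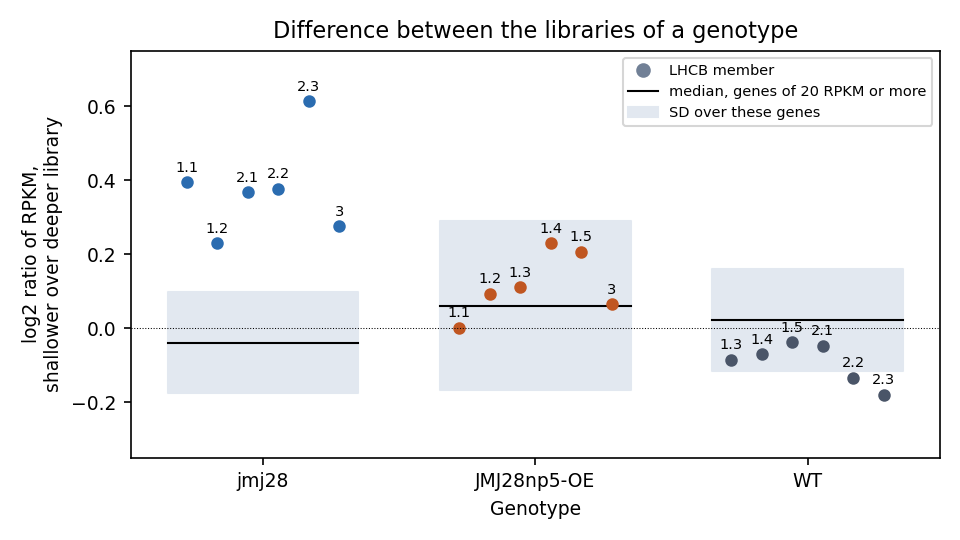
Log2 ratio of RPKM in the shallower over the deeper library of jmj28, JMJ28np5-OE and WT for the LHCB genes solved in each, labelled by their number. The line and band give the median and SD of all genes with at least 20 RPKM in that genotype, and the 6 jmj28 points lie above the band, at 0.23 to 0.61.

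The remaining antenna genes showed no call in any comparison. The minor antenna (LHCB4.1 to LHCB4.3, LHCB5, LHCB6 and the rare LHCB7) joins the trimers to the photosystem II core. None of its 6 genes was called. Its median log2 fold change was -0.08 in jmj28 against WT, with all 6 below 0. In JMJ28np5-OE against WT it was 0.01, with 4 above 0 and 2 below. In jmj28 against JMJ28np5-OE it was -0.11, with 1 above 0 and 5 below. The minor antenna genes of highest level, LHCB5 and LHCB4.1, were at 0.03 (FDR 1) and 0.04 (FDR 1) in JMJ28np5-OE against WT per the authors' deposited table. The photosystem I antenna (LHCA1 to LHCA6) had 0 of 6 called, with medians of -0.09 in jmj28 against WT, 0.11 in JMJ28np5-OE against WT and -0.20 in jmj28 against JMJ28np5-OE. LHCA2 reached 0.21 in JMJ28np5-OE against WT (FDR 0.657) per the authors' deposited table, and LHCA1 0.13 (FDR 1). By the authors' unadjusted p under 0.05, 0 of 6 minor antenna genes passed in any comparison, and of the photosystem I antenna 3 of 6 passed in jmj28 against JMJ28np5-OE, all below 0, and 0 in the others.

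The nuclear photosystem subunits were called only in jmj28 against JMJ28np5-OE, and only lower. In that comparison 7.29% of all genes, and 18.0% of those with at least 100 RPKM, were called lower. Of 13 nuclear subunits of photosystem II, 2 fell: PSBR, a subunit beside the oxygen-evolving complex, by 0.38 (FDR 0.000109) and PSBW, a small membrane subunit, by 0.25 (FDR 0.0295) on the log2 scale per the authors' deposited table. PSBO1, the main subunit that stabilises the manganese cluster, was at -0.22 (FDR 0.0791) per the authors' deposited table. Of 12 nuclear photosystem I subunits 1 fell, PSAE2 on the stromal side, by 0.32 (FDR 0.00309) per the authors' deposited table, while PSAL and PSAG were at -0.10 each (FDR 0.725 and 0.724). None of the 4 Rubisco small subunit genes was called, and 0 had an unadjusted p under 0.05. RBCS1A, the highest of them, was at -0.14 (FDR 0.449) and RBCS3B at -0.06 (FDR 1) per the authors' deposited table.

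**Figure D4:**
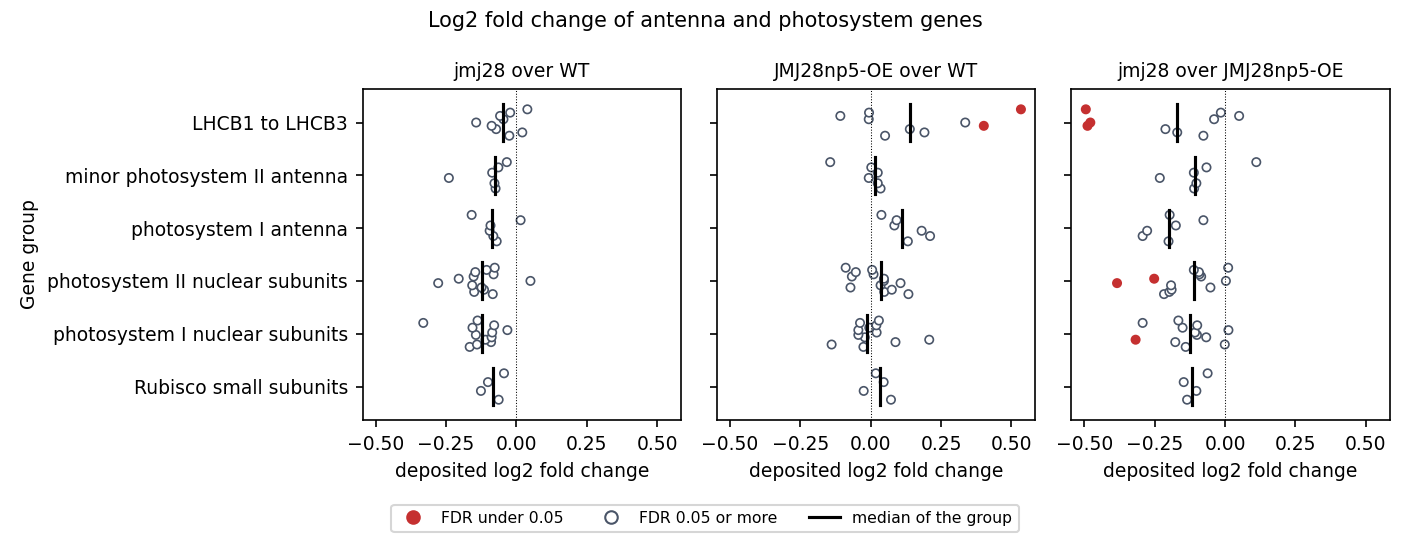
Deposited log2 fold change of each gene of 6 groups in the 3 comparisons, with filled points at an FDR under 0.05 and a bar at the median of the group. In JMJ28np5-OE over WT the filled points are LHCB1.4 and LHCB3, and in jmj28 over JMJ28np5-OE the filled points are 3 LHCB genes, 2 photosystem II subunits and 1 photosystem I subunit.

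Genes that handle LHCII after transcription gave few calls, all lower in jmj28 against JMJ28np5-OE, where 7.29% of all genes were called lower. Of 5 genes for delivery and insertion (the stromal signal recognition particle and its partners) none was called; in jmj28 against JMJ28np5-OE the insertase ALB3 was at -0.12 (FDR 0.595) and the carrier LTD at -0.09 (FDR 0.853) per the authors' deposited table. Of 4 genes for LHCII phosphorylation 1 fell there, the phosphatase TAP38, which reverses state transitions, by 0.31 (FDR 0.00591) per the authors' deposited table, and the kinase STN8 was at -0.02 (FDR 1). Of 4 genes for the breakdown of chlorophyll b and LHCII 1 fell, the chlorophyll b reductase NYC1, by 0.47 (FDR 0.00369) per the authors' deposited table, and HCAR was at -0.11 (FDR 0.731). Chlorophyll synthesis had 1 call among 14 genes in that comparison: HEMA1, the first committed step of tetrapyrrole synthesis, fell by 0.52 (FDR 1.77e-06) per the authors' deposited table. PORB, which reduces protochlorophyllide in light, was at 0.09 (FDR 0.819) and CRD1 at 0.03 (FDR 1) per the authors' deposited table. Neither jmj28 nor JMJ28np5-OE had a call against WT in these 4 groups, where at an unadjusted p under 0.05 jmj28 had 1 gene each in chlorophyll synthesis and in breakdown, and JMJ28np5-OE had 3 in chlorophyll synthesis and 1 in phosphorylation.

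Among 15 regulators of LHCB transcription, the phytochrome-interacting factors PIF4 and PIF5, which act against greening in the dark, rose in JMJ28np5-OE against WT, by 0.57 (FDR 0.0486) and 0.64 (FDR 0.0373) on the log2 scale per the authors' deposited table. 1 library carried most of this rise: PIF4 had 22.1 and 35.7 RPKM in the deeper and shallower JMJ28np5-OE libraries, against 19.7 and 19.9 RPKM in WT libraries, and for PIF5 the JMJ28np5-OE libraries stood at 12.7 and 21.5 RPKM, those of WT at 11.5 and 10.9 RPKM. Without the shallower JMJ28np5-OE library the log2 fold changes against WT were 0.18 for PIF4 and 0.20 for PIF5, and without the deeper one 0.88 and 0.97. Both factors fell in jmj28 against JMJ28np5-OE, by 0.89 and 1.02 per the authors' deposited table, and without the shallower JMJ28np5-OE library they were at -0.49 and -0.59. The GATA factor CGA1 rose there by 1.2 (FDR 0.000653) per the authors' deposited table. Of all genes, 2.87% were called higher in JMJ28np5-OE against WT, and 4.12% higher and 7.29% lower in jmj28 against JMJ28np5-OE. GLK1, an activator of antenna genes, had 97.9 RPKM in jmj28, 82.0 RPKM in JMJ28np5-OE and 93.5 RPKM in WT and was not called, at -0.16 on the log2 scale (FDR 0.564) in JMJ28np5-OE against WT per the authors' deposited table. GUN1, a chloroplast signalling protein, was at -0.09 (FDR 1) there. The clock factors CCA1 and LHY, which peak around dawn, were at most 0.54 and 0.38 RPKM in any genotype. The sampling hour was not given in the sources used here. Among 6 LHC-like proteins, the light-stress gene ELIP1 rose in jmj28 against WT by 0.81 (FDR 0.0406) per the authors' deposited table, with means of 12.8 RPKM in jmj28 and 7.12 RPKM in WT. In that comparison 0.208% of all genes were called higher. LIL3.2 and LIL3.1, which anchor chlorophyll synthesis enzymes, were at -0.07 and -0.06 (FDR 1 each) per the authors' deposited table.

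By a fixed measure of likeness, the distance of a gene's log2 fold changes in both comparisons with WT from the medians of the LHCB genes, the nearest of 2279 other genes of at least 50 RPKM were AT5G02480, COR47, AT1G18720, PNSL1 and RD19A. COR47 codes for a dehydrin, PNSL1 for a lumenal subunit of the photosynthetic NDH complex and RD19A for a cysteine protease. PNSL1 was at -0.04 in jmj28 against WT and 0.15 in JMJ28np5-OE against WT per the authors' deposited table. The measure rests on 3 genotypes, and the distances, 0.001 to 0.0147, are far below the standard errors.

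The genotype labels and the tissue were checked in the same libraries. JMJ28 (listed as B160) had 244.0 and 307.0 RPKM in JMJ28np5-OE libraries, against 6.90 and 6.50 RPKM in WT libraries, a log2 fold change of 5.38 per the authors' deposited table. In jmj28 it was lower than in WT by a log2 fold change of -1.10 (FDR 3.07e-08) per the authors' deposited table. Of the 4 Rubisco small subunit genes 3 had values in all genotypes, summing to 14730 RPKM in jmj28, 15526 RPKM in JMJ28np5-OE and 15211 RPKM in WT, so the leaf markers were high in each. The 9 root markers summed to 160.6 RPKM in jmj28, 112.6 RPKM in JMJ28np5-OE and 111.6 RPKM in WT, with none at 0. Of these 9, TIP2;3, AGP30 and IRT1 were called higher in jmj28 against WT, IRT1 in JMJ28np5-OE against WT, and TIP2;3, AGP30, RCI3 and CASP1 in jmj28 against JMJ28np5-OE. The shares called higher over all genes in these comparisons were 0.208%, 2.87% and 4.12%, in the same order. No root marker was called lower, but their signs were mixed. Of the 9, 7 were above 0 and 2 below in jmj28 against WT. In JMJ28np5-OE against WT 3 were above and 6 below, with a median log2 fold change of -0.12. In jmj28 against JMJ28np5-OE 8 were above and 1, MYB36, was below at -0.51 (FDR 0.326). IRT1 had a log2 fold change of 0.97 in jmj28 against WT, or 0.54 without the shallower jmj28 library, and of 0.74 in JMJ28np5-OE against WT, or 0.46 without the shallower JMJ28np5-OE library, the full values per the authors' deposited table. The part of the root markers in the LHCB differences was not tested, and in whole seedlings fewer green cells and less LHCB RNA per cell cannot be told apart. The 6 seed and floral markers summed to 1.59 RPKM in jmj28, 3.70 RPKM in JMJ28np5-OE and 2.41 RPKM in WT, and AP3 and AG, at most 1.5 RPKM, were called lower in jmj28 against JMJ28np5-OE. PI, the highest of them at 1.51 RPKM, was not called. The share of all genes called lower in jmj28 against JMJ28np5-OE was 7.29%.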

How the data were processed

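Total RNA (1 ug) of 14-day-old seedlings was made into TruSeq libraries, per the labels' protocols, and read in 150-base reads. Reads were placed on TAIR10, per the submitters' processing notes. Aligner, counter and test were not given in the sources used here. Per the file headers, the authors deposited for each pair of genotypes the higher of the 2 group means in RPKM and, from their own test, the log2 fold change with its p-value, its adjusted forms (FDR, Bonferroni) and the signed fold. No value per library is among them. Counts of genes exclude CO and FT, because their fold change and p-value equal those of another gene, which left 23540 genes.

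A call is an FDR under 0.05 in the authors' tables; no test was refitted. Library totals were solved from single-exon genes, and whole reads per library from each mean and its RefSeq exon length (tolerance 1e-07); 99.5% of 46108 means were solved, and in simulated reads 8038 of 8038 solved pairs were true. Standard errors are the log2 fold change over the normal deviate of the p-value, with intervals of 1.96 of them (95%). Centring used genes of at least 5 RPKM and the log ratio a pseudocount of 1. The members and the gene lists were chosen with earlier results of these data known. All 9 members are named, and of each other list the genes called in any comparison and the 2 of highest level. Nucleotide identity of global alignments replaced the planned protein identity, as no protein table was used here. Promoter and coding sequence came from RefSeq TAIR10.1, where all 9 members have the coordinates of the tables' build. Python 3.11.15, pandas 2.3.3, numpy 2.4.6, scipy 1.17.1, Biopython 1.88 and matplotlib 3.10.9 were used.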

Additional observations from a re-analysis of the deposited data

How the results depend on the processing

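The calls of LHCB genes are small in size and few in libraries. With Benjamini-Hochberg adjustment over genes with reads, or over genes of at least 1 RPKM, the same 2 genes (LHCB1.4 and LHCB3) were higher in JMJ28np5-OE against WT and the same 3 (LHCB1.4, LHCB1.5 and LHCB3) lower in jmj28 against JMJ28np5-OE. At an FDR under 0.01 the first count was 1 (LHCB3) and the second stayed 3. Both counts were 0 with the Bonferroni p-value, which was 0.465 or more for every LHCB gene. They were also 0 with at least 1.5-fold required, since the largest change was 1.45-fold. The counts of 0 in jmj28 against WT stayed 0 under all 5 rules. The median log2 fold change moved by at most 0.01 with centring. In JMJ28np5-OE against WT it was 0.31 as a ratio of RPKM means, with or without a pseudocount, because only LHCB1.3, LHCB1.4 and LHCB1.5 have both means solved; over all 9 genes with the lowest mean set from the fold change, an alternative added after seeing the data, it was 0.11. Leaving out 1 library, the median ranged from -0.14 to 0.13 in jmj28 against WT and from 0.08 to 0.19 in JMJ28np5-OE against WT. In jmj28 against JMJ28np5-OE it ranged from -0.29 to -0.06. In each of these medians only 6 of the 9 genes were recomputed, and those without solved libraries kept their full value. Of 72 single-gene values without 1 library, 14 changed sign, none of them among the 14 of called genes. Those of called genes moved by at most 1.1-fold on the linear scale, where the largest called change was itself 1.45-fold. Counts of calls could not be recomputed without a library, because the tables hold no value per library for the lowest genotype. No paired analysis was possible because the tables carry no replicate number and the solved libraries are known by depth alone.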
